A study of Rattus norvegicus with 4 samples.

Results

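The cytosolic ribosomal protein genes were described in rat alveolar macrophages of the line NR8383 after exposure to carbon nanotubes. The genes were those of the large subunit, the small subunit and the ribosomal stalk, chosen by their rat symbols (Rpl, Rps and Rplp with a number), with kinases and genes marked as like another left out. It gave 74 of the 16581 named genes on the array: 42 of the large subunit, 29 of the small subunit and the 3 stalk genes Rplp0, Rplp1 and Rplp2. They were read by 183 of 45598 probes. Of the 76 such genes in the rat gene table, Rpl37 and Rps9 had no matched probe here.

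All cells analysed belonged to 1 group. The line was first grown from the lung lavage of a normal rat and is labelled as being at 20 passages. The cells had met NRCWE055, a pristine single-walled carbon nanotube, for 4 h at 11 cm2 of nanotube surface per cm2. The series' design calls its 4 cultures biological replicates, and each was read on 1 array. For replicates 2, 3 and 4 the source name gives a different NRCWE number from the title, and the title was followed. Unexposed cells were not analysed here. Whether these genes responded to nanotubes therefore cannot be read from the values. Comparisons are between cultures labelled by their titles with the same exposure. Whether the differing source names mark a differing exposure of replicates 2 to 4 was not tested. Culture, labelling and array cannot be told apart.

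A ribosome is built from ribosomal RNA and one copy each of most ribosomal proteins, so their genes are expressed in every dividing cell and their mRNAs are among the most abundant. In mammals these mRNAs share a start: transcription begins at a C inside a run of C and T, the terminal oligopyrimidine (TOP) motif, and through it the mTOR kinase sets how strongly they are translated. Macrophages that are activated change protein synthesis, and Rplp0 and other members are in common use as reference genes, which are assumed to be equal between samples.

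Start sequences are shown for the 3 stalk genes and for 6 members that varied much or little between cultures, because the mRNAs are known for a shared control through this stretch. Each line gives 20 bases before the annotated start and 10 bases from it, on the gene's strand, from RefSeq for the build GRCr8. Capitals mark the unbroken run of C and T from the first transcribed base, and a line with no capitals has none.
Rplp0, chr12:46718381-46718410, minus strand: ctggtgaccgcaccgcacttCTCTCgccag
Rplp1, chr8:71290863-71290892, minus strand: tgcgcgcaggcgcatgtgatCCTTTCCTCa
Rplp2, chr1:205975901-205975930, plus strand: atcttcctttcgccgccggaCgccgccgag
Rps12, chr1:23500055-23500084, plus strand: catgcgcacagaagcccagcagagcgctta
Rps23, chr2:23814497-23814526, plus strand: ccttgtgggtccttcctgccTCTCTTCTCT
Rpl41, chr7:1563488-1563517, minus strand: gaaggggcggctcggaagtgacgacaccaa
Rpl22, chr5:168117941-168117970, plus strand: cctgcgtagtgcgcccccctCCCTTTCTgc
Rpl39, chrX:121195887-121195916, minus strand: cagcgtcttctaatcgcgttCTTCCggcct
Rps6, chr5:106420531-106420560, minus strand: ttcgtgacgcctcctaggcggtcggctgtg

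RefSeq windows of 300 bases (250 before the start and 50 after it) were held for 59 of the 74 genes, as 60 windows. A C at the start followed by at least 4 letters that were C or T was found in 23 of the 60 windows (38.3%), against 2.63% of all 33469 windows of that length. The first transcribed base was C in 53.3% of the ribosomal windows and in 24.1% of all windows. Rplp0, Rplp1, Rpl22 and Rpl39 carried the motif at their annotated start, and Rps12, Rpl41 and Rps6 did not. Rps23 had a run of 19 pyrimidines that opened with T, so it was not counted. Starts taken from an annotation can lie a few bases from those used in these cells.

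Further motifs were counted on both strands of the same windows. CTTTCC, which can overlap the run at the start, was in 50.0% of the ribosomal windows and in 26.4% of all windows. CCGGAAG, a core bound by ETS factors, was in 31.7% against 8.75%. TATAA, the core of the TATA box, was in 23.3% against 26.2%. A match gives letters and not a bound site.

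Every one of the 74 genes was well above background on all 4 arrays, whereas 52.4% of all named genes were. Levels are log2 signals relative to the 75th percentile of each array, taken over probes detected on all 4. On this scale the members had a median level of 5.11, a 10th percentile of 3.47 and a 90th percentile of 5.99. The median of all 8685 detected genes was -1.99. All 74 members lay above the 75th percentile of their array, as did 27.1% of detected genes. A probe's brightness also depends on its sequence, so these levels do not order the transcripts by abundance. RNA was taken from whole cultures, so fewer cells that express a gene and less RNA of it per cell cannot be told apart.

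Markers of the labelled cell type were detected, though not all at high levels. All 8 macrophage markers (Cd68, Spi1, Csf1r, Pparg, Lyz2, Ctsd, Itgam and Mrc1) were detected on every array, as were 52.4% of all named genes. Itgam (mean level -2.53) and Mrc1 (-2.55) lay below the median of detected genes (-1.99), and the other markers lay above it. Of 10 markers of epithelium, fibroblasts, lymphocytes, granulocytes, red cells and mast cells with a probe, Epcam, Sftpc, Cdh1, Col3a1, Cd3e, Cd8a, S100a9, Alas2 and Cpa3 (9 genes) were detected on no array and Col1a1 on 1. The arrays differed in brightness: their 75th percentile signals were 1756, 2631, 2861 and 1873 for replicates 1 to 4, a range of 1.63-fold. Each array detected 40.8% to 43.7% of probes, and no spot was saturated.

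**Figure D1:**
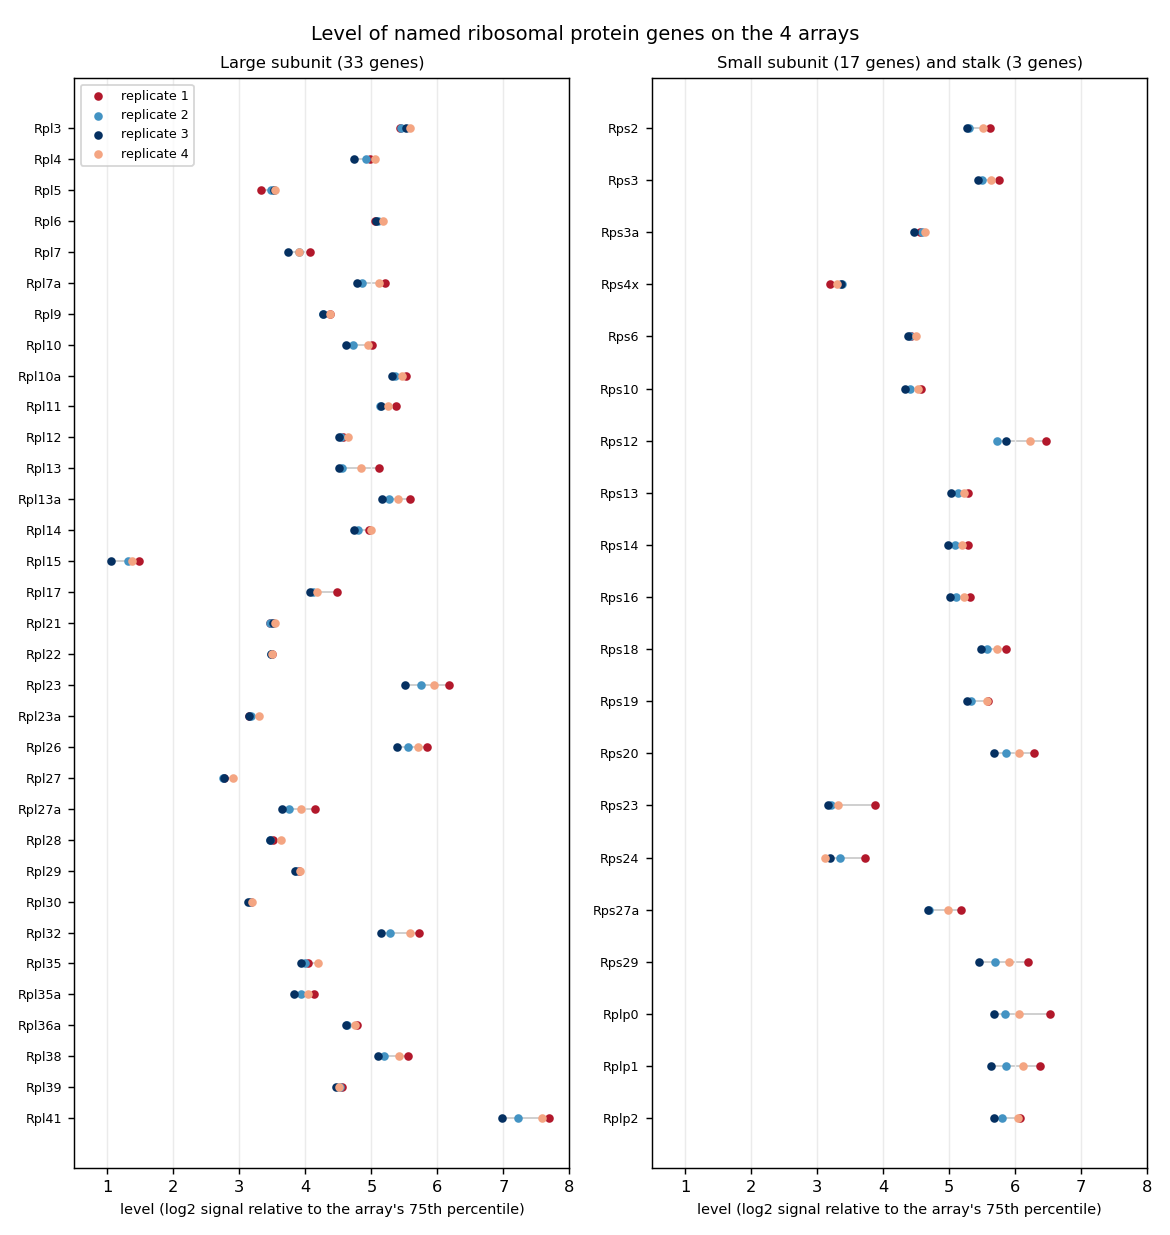
Level of the 53 ribosomal protein genes named in the text (log2 signal relative to the array's 75th percentile, horizontal axis) on the 4 arrays, 1 point per array, with large subunit genes on the left and small subunit and stalk genes on the right. Replicate 1 (dark red) is the rightmost point for 35 of these genes and replicate 3 (dark blue) the leftmost for 43.

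The stalk is the lateral arm of the large subunit that recruits elongation factors, and Rplp0 and Rplp1 were among the members with the widest spread. Rplp0, the protein that anchors the stalk, had levels of 6.53, 5.84, 5.68 and 6.06 in replicates 1 to 4. Its SD of 0.371 (n = 4) was the largest of the 74, and its highest culture was 1.81-fold its lowest. Rplp1, an acidic protein that pairs with Rplp2 on that base, had 6.37, 5.87, 5.63 and 6.12, a range of 1.67-fold (SD 0.321, n = 4). Rplp2 had 6.08, 5.79, 5.68 and 6.04 (SD 0.192, n = 4). As gene values, all 3 were highest in replicate 1 and lowest in replicate 3, with replicate 4 above replicate 2. For Rplp2 the probe printed once was highest in replicate 1 (6.90, 6.44, 6.24 and 6.72). Its probe printed 10 times was highest in replicate 4 (5.26, 5.15, 5.12 and 5.35). The spread of Rplp0 and Rplp1 rests on 1 probe each, printed once per array. Under quantile normalization, which forces the arrays to the same distribution, Rplp0 spanned 1.32-fold, Rplp1 1.26-fold and Rplp2 1.05-fold.

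Among the 29 small subunit genes, 6 spanned more than 1.5-fold between cultures, as did 7.53% of all detected genes. Without replicate 1, 1 of all 74 members (1.35%) still did, against 4.34% of all detected genes. Rps12, a protein of the subunit's head, had 6.47, 5.72, 5.86 and 6.23 and spanned 1.68-fold (SD 0.343, n = 4). It was lowest in replicate 2, unlike most members. This rested on 1 of its 2 probes (6.43, 5.36, 5.74 and 6.16), while the other was lowest in replicate 3 (6.51, 6.08, 5.98 and 6.30). Rps29, a small zinc-binding protein, had 6.20, 5.69, 5.45 and 5.91 and spanned 1.68-fold. Rps23, which carries a conserved residue of the decoding centre, had 3.88, 3.22, 3.16 and 3.31 and spanned 1.65-fold. Replicate 1 stood above the other 3 cultures for Rps23, which lay close together. Rps20 and Rps24 spanned 1.52-fold each. With quantile normalization Rps23 (1.59-fold) and Rps24 (1.51-fold) were the 2 members of the whole set that still passed 1.5-fold.

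Other small subunit genes varied less. Rps6, the substrate of the S6 kinases downstream of mTOR, had 4.43, 4.41, 4.37 and 4.50 (SD 0.0527, n = 4). These cultures lay close together, and the probe's 10 spots per array did not separate them in limma's moderated F test (adjusted p = 0.174). Rps3, which lies at the mRNA entry and also has a role in DNA repair, had 5.75, 5.49, 5.43 and 5.63. Rps14, a protein of the subunit's platform, had 5.28, 5.08, 4.98 and 5.19. Rps19, the gene most often mutated in Diamond-Blackfan anaemia, had 5.59, 5.33, 5.27 and 5.58. For each of Rps3, Rps14 and Rps19, replicates 1 and 4 lay above replicates 2 and 3. Rps27a, made as a fusion to ubiquitin, had 5.18, 4.69, 4.67 and 4.99 in the same arrangement. Rps4x, the X-linked form of its protein, went the other way and had 3.19, 3.38, 3.36 and 3.30. It was lowest in replicate 1 and was the only member highest in replicate 2, and its 10 spots per array separated the arrays (limma adjusted p = 9.71e-06).

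Of the 42 large subunit genes, 4 (9.52%) spanned more than 1.5-fold, near the 7.53% of all detected genes. Among the 4 were Rpl41, Rpl23 and Rpl13. Rpl41, which encodes the shortest protein of the ribosome, had 7.68, 7.22, 6.98 and 7.58 and spanned 1.63-fold (SD 0.326, n = 4). Its signals before scaling were 360597, 391942, 360425 and 358097, so the signal itself spanned 1.09-fold while the array scale spanned 1.63-fold. Rpl23, which contacts Mdm2 under ribosomal stress, had 6.18, 5.74, 5.51 and 5.95 and spanned 1.59-fold. Rpl13 had 5.12, 4.56, 4.51 and 4.84 and spanned 1.52-fold.

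The members with the smallest spread were also large subunit genes. Rpl22, which is dispensable in most cells and needed for alpha-beta T cells, had 3.49, 3.48, 3.48 and 3.49 (SD 0.00704, n = 4). Its signals before scaling were 19733, 29399, 31885 and 21095, so they followed the brightness of the arrays and the scaled levels agreed to 1.01-fold. These are means over 4 probes, whose single SDs ran from 0.0242 to 0.0785, so no probe was as steady as their mean. Rpl30 (SD 0.0270), Rpl21 (SD 0.0332) and Rpl29 (SD 0.0368) came next. Their single probes had SDs of 0.0441 to 0.0629, 0.0459 to 0.131 and 0.0288 to 0.145, in that order. Under quantile normalization the SD of Rpl22 was 0.0384.

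Large subunit genes of known special roles lay between these extremes. Rpl5 and Rpl11 form, with a small ribosomal RNA, the particle that binds Mdm2 when ribosome assembly fails. Rpl5 had 3.33, 3.48, 3.53 and 3.54 and Rpl11 had 5.37, 5.13, 5.14 and 5.25. The partners thus differed in the culture at their extremes, with replicate 1 lowest for Rpl5 and highest for Rpl11. Rpl3, which lies at the peptidyl transferase centre, had 5.43, 5.45, 5.52 and 5.59, and was among the 5 members lowest in replicate 1. Rpl10, needed for subunit joining, had 5.02, 4.72, 4.62 and 4.95. Rpl13a, which can leave the ribosome to repress inflammatory mRNAs in myeloid cells, had 5.59, 5.27, 5.15 and 5.41.

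The same arrangement held for several others. Rpl7a had 5.21, 4.85, 4.78 and 5.11. Rpl26, which binds p53 mRNA, had 5.84, 5.55, 5.39 and 5.71. Rpl38, linked to the translation of Hox mRNAs, had 5.55, 5.18, 5.09 and 5.42. In all 3 the gene value was highest in replicate 1 and lowest in replicate 3. Single probes differed: the probe of Rpl38 printed 10 times was highest in replicate 4 (5.10, 5.05, 5.01 and 5.15). So was a probe of Rpl7a (4.16, 3.82, 3.89 and 4.18). Rpl4, which lines the exit tunnel, had 4.99, 4.92, 4.74 and 5.05, and Rpl39, a short protein of the same tunnel, had 4.55, 4.53, 4.47 and 4.50. Replicate 3 was lowest for both.

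As a list, ribosomal protein genes had a wider spread between arrays than detected genes in general under the main scaling. Their median SD was 0.164 on the log2 scale (1.12-fold), against 0.0926 for all detected genes and 0.0616 for the 276 other genes at or above the members' 10th percentile of level. Those 276 had a median level of 4.18 against 5.11 in members, and above a level of 3 the SD grew with level. At levels of 4 to 5 the median SD was 0.133 for members and 0.0629 for other genes. At 5 to 6 it was 0.168 and 0.107, and at 6 to 7 it was 0.250 for 6 members and 0.205 for 10 other genes. A span over 1.5-fold was seen in 12 of 74 members (16.2%) and in 7.53% of all detected genes. No member spanned over 2-fold. All 12 were highest in replicate 1, and 10 were lowest in replicate 3. The count rested on single arrays: it was 1 (1.35%) without replicate 1 and 4 (5.41%) without replicate 3. The shares of all detected genes there were 4.34% and 5.92%, so the members' shares were not above them. Without replicates 2 and 4 it was 12 (16.2%) and 11 (14.9%), against 5.37% and 5.32% of all detected genes. The count also rested on the scaling. Quantile normalization left 2 members (2.70%, against 6.90% of all genes) and a median SD of 0.0668, which was below the 0.0934 of all genes.

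**Figure D2:**
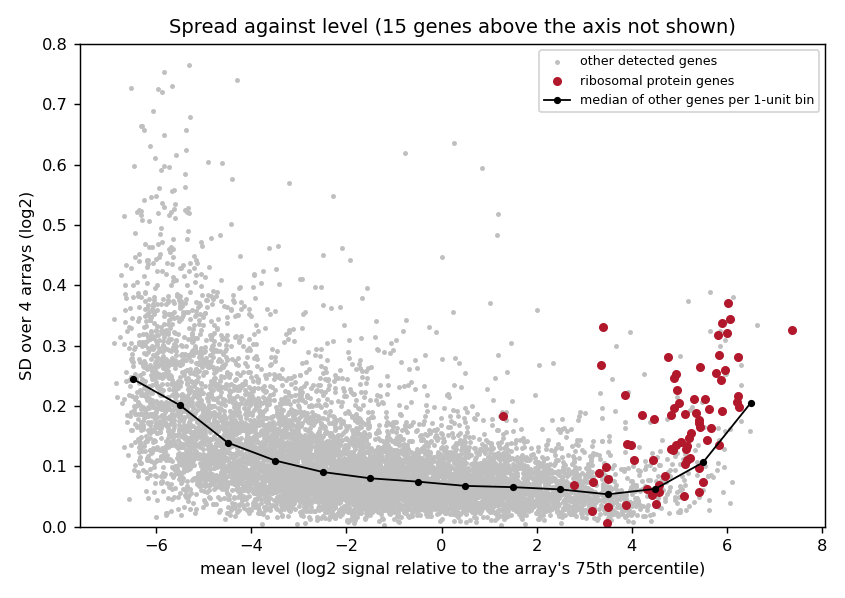
SD over the 4 arrays (log2, vertical axis) against mean level (log2 signal relative to the array's 75th percentile, horizontal axis) for the 74 ribosomal protein genes (red) and the other detected genes (grey), with the median of the other genes in bins of 1 unit (black line). The red points reach an SD of 0.371 and most lie above the black line, which itself turns upward at the highest levels, and 15 other genes lie above the axis.

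Most members deviated in the same direction on each array. On replicate 1 their median deviation from each gene's own mean was 0.18, on replicate 4 it was 0.07, on replicate 2 -0.08 and on replicate 3 -0.17. The medians of all detected genes lay between -0.01 and 0.01 on every array. Replicate 1 was highest for 55 members (74.3%), replicate 4 for 18 (24.3%), and replicate 3 for none, while replicate 3 was lowest for 64 (86.5%). Of all detected genes, 26.0%, 29.4% and 23.2% were highest on replicates 1, 4 and 3, and 18.2% were lowest on replicate 3. Of the 276 other genes at or above the members' 10th percentile of level, 54.0% were highest on replicate 1 and 43.1% lowest on replicate 3. The full order of replicates 1, 4, 2 and 3 from high to low was found in 51 of 74 members (68.9%) and in 5.66% of all detected genes. Among the 276 other genes at or above the members' 10th percentile it was 26.4%, but their median level was 4.18 against 5.11 in members, and the share grew with level. At levels of 4 to 5 it was 60.0% of 20 members and 23.8% of 101 other genes, at 5 to 6 it was 87.5% of 32 and 57.4% of 54, and at 6 to 7 it was 5 of 6 members and 7 of 10 other genes. This order is the reverse of the order of array brightness, whose part in the result was not tested.

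**Figure D3:**
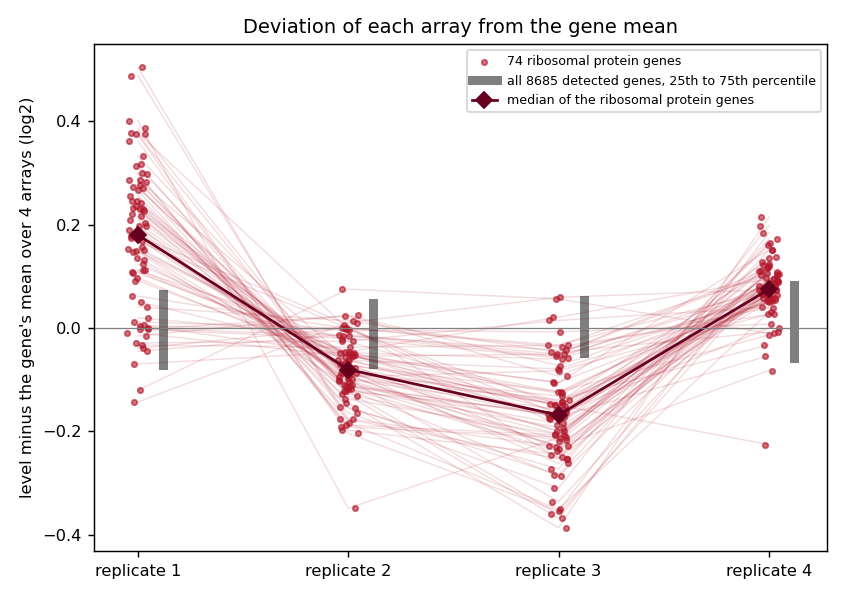
Level minus the gene's mean over 4 arrays (log2, vertical axis) for the 74 ribosomal protein genes on each array (red points, thin lines join a gene), with their median (diamonds). Grey bars span the 25th to 75th percentile of all 8685 detected genes: the ribosomal median is 0.18 on replicate 1 and -0.17 on replicate 3.

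Replicate 4 was highest for 18 members (24.3%), against 29.4% of all detected genes. The 18 were 15 large subunit genes and 3 small subunit genes. They included Rpl3, Rpl4, Rpl5, Rpl6, Rpl9, Rpl12, Rpl14, Rpl21, Rpl22, Rpl23a, Rpl27, Rpl28, Rpl29, Rpl30, Rpl35, Rps3a and Rps6. Their median level was 4.18 and their median SD 0.0661, against 5.25 and 0.192 for the 55 members highest in replicate 1. Of the 18, 15 were read by a probe printed 10 times, as were 26 of the 55. Rpl6 had 5.06, 5.10, 5.06 and 5.17 and Rps3a had 4.56, 4.59, 4.47 and 4.64. In both genes the cultures lay within a narrow range although the level was close to that of members with wide spread.

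The direction on replicates 1 and 3 held under the 5 scalings and background settings compared, but its size did not. Replicate 1 was highest for 53 members after normexp background correction, 44 with the 75th percentile of all spots, 56 with the median of detected probes and 38 with quantile normalization. Replicate 3 was lowest for 57, 62, 63 and 43 members under the same settings. Of all detected genes, 42.5%, 14.2%, 25.1% and 22.5% were highest on replicate 1 in these settings, against 26.0% under the main scaling. The shares lowest on replicate 3 were 30.3%, 17.8%, 16.3% and 16.03%, against 18.2%. After normexp correction both shares of all genes were thus higher than under the main scaling. With quantile normalization the members' median deviations shrank to 0.03, 0.00, -0.05 and 0.01 for replicates 1 to 4. There 23 members (31.1%) kept the full order, against 4.17% of all genes.

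Above a level of 3 the deviation grew with level, in members and in other genes. At levels of 3 to 4 the median deviation on replicate 1 was 0.01 for 13 members and 0.02 for 230 other genes. At 4 to 5 it was 0.12 for 20 members and 0.05 for 101 other genes, at 5 to 6 it was 0.20 for 32 and 0.13 for 54, and at 6 to 7 it was 0.28 for 6 and 0.26 for 10. On replicate 3 the corresponding medians of the members were -0.05, -0.14, -0.17 and -0.25, and those of other genes were 0.00, -0.04, -0.12 and -0.21. Members and other genes thus had near values in the lowest and highest of these bins on replicate 1 and differed in the middle bins. Other genes also shifted at the dim end, where no member lay. At -7 to -6 the medians of 345 genes were 0.14 on replicate 1 and -0.09 on replicate 3. Over the 74 members, level and deviation on replicate 1 had a Pearson r of 0.47 and a Spearman rho of 0.52, given as a description because all members share the same arrays.

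**Figure D4:**
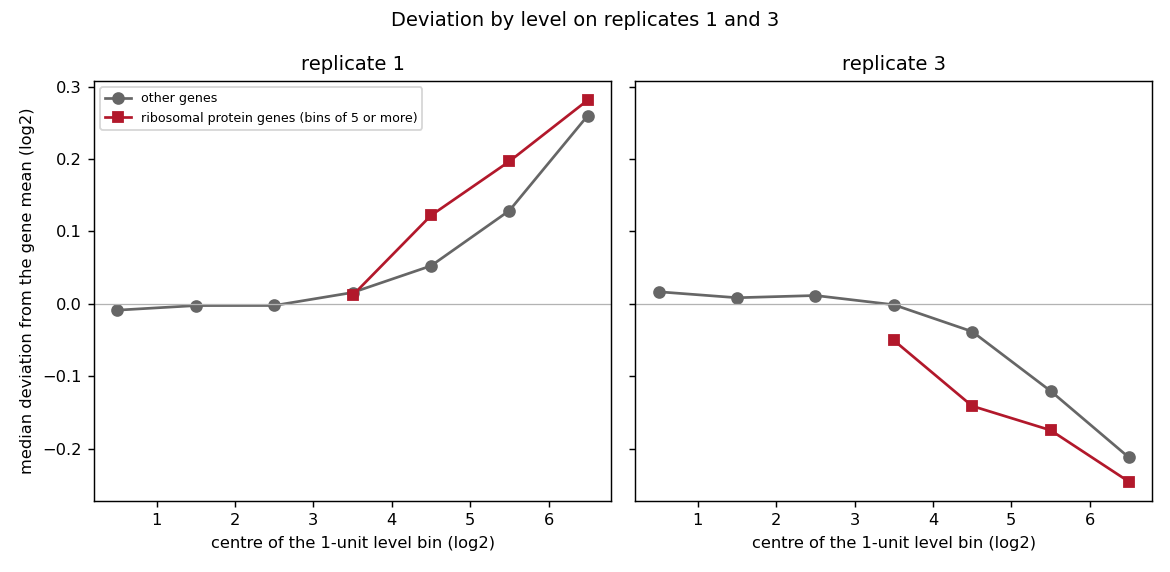
Median deviation from the gene mean (log2, vertical axis) on replicates 1 and 3 in bins of level 1 unit wide (horizontal axis, log2), for ribosomal protein genes (red squares, bins of at least 5) and other genes (grey circles). Both curves leave 0 as the level rises, to 0.28 and 0.26 on replicate 1 and to -0.25 and -0.21 on replicate 3.

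Signals before scaling gave the same view from the other side. For 15 members with levels under 4, the brightest array was a median of 1.58-fold the dimmest, near the 1.63-fold range of the array scale. It was 1.38-fold for 20 members at 4 to 5, 1.29-fold for 32 at 5 to 6 and 1.23-fold for the 7 at 6 and over. The brightest members therefore differed least between arrays in raw signal and most after scaling.

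Probes of the same gene differed by how often they were printed on an array. The 117 member probes printed once had a median SD of 0.228 and a median deviation of 0.26 on replicate 1. The 63 probes printed 10 times, whose spots were averaged, had a median SD of 0.0769 and a deviation of 0.01 there. In the 33 genes that had both kinds, the probes printed once had the larger SD in 31 genes (medians 0.216 and 0.0839), and the exceptions were Rpl10a and Rpl23a. They also had the higher level in 27 of the 33. In Rpl17, for example, the SD was 0.405 for the probe printed once and 0.0605 for the one printed 10 times, although the former was the dimmer (levels 3.95 and 4.48).

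The kinds also differed at similar levels. At levels of 4 to 5, member probes printed once had a median deviation of 0.19 on replicate 1 and those printed 10 times 0.01. Probes of other genes had 0.10 and 0.05 at that level. At 3 to 4, the 7 member probes printed once had 0.35 against 0.04 for other such probes. Why the kinds differed was not tested. Of the 12 genes with spans over 1.5-fold, 11 were measured only by probes printed once, as were 31 of the 74. From the probes printed once, 19 of 65 genes spanned over 1.5-fold, and from those printed 10 times 0 of 42 did. The share of all genes was not counted by kind of probe, so these counts do not set members apart. At levels of 5 to 6, probes of other genes had median SDs of 0.160 printed once and 0.0951 printed 10 times. Member probes had 0.241 and 0.0878 there. At 6 to 7, probes of other genes had 0.216 and 0.223. With quantile normalization the probes printed once had the larger SD in 24 of the 33 genes (medians 0.0811 and 0.0562).

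**Figure D5:**
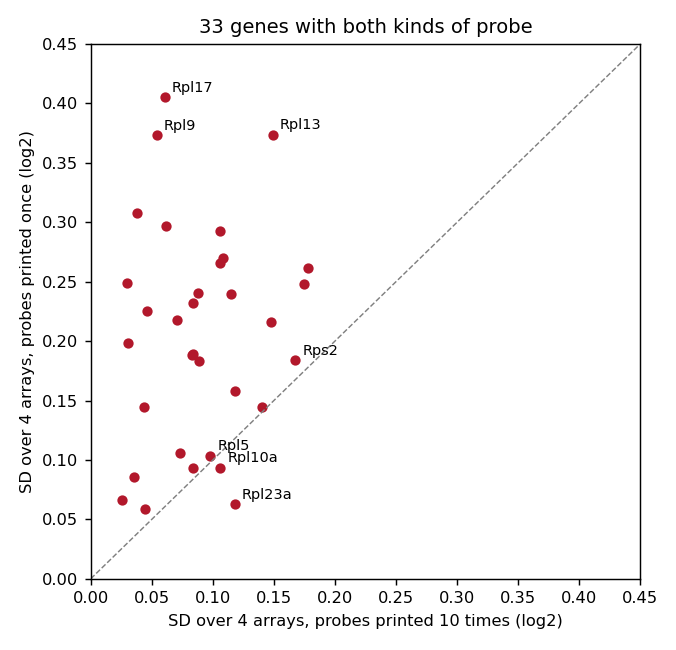
SD over 4 arrays (log2) of the probes printed once (vertical axis) against that of the probes printed 10 times (horizontal axis) for the 33 ribosomal protein genes with both kinds, 1 point per gene. The dashed line marks equal SD: 31 points lie above it, and Rpl10a and Rpl23a lie below.

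Replicate spots allowed a test of the difference between arrays against the noise between spots, with limma's moderated F test and Benjamini-Hochberg adjustment over all 1742 detected probes printed several times. It compares these arrays, each of 1 culture, and not conditions. It found differences for 43 of 64 member probes (67.2%), which belonged to 32 of 43 genes, against 42.8% of all probes tested. Among probes printed 10 times the shares were 68.3% of 63 for members and 65.7% of 1038 for all, so the members' share was near that of probes printed as often. The count fell to 26 of 64 without replicate 4, where 30.0% of all probes tested were called. It fell to 9 when spots were read from median signals with normexp correction, which called 12.7% of all probes.

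The differences past this test were small. The largest was 0.38 on the log2 scale, for a probe of Rps16 with levels of 6.03, 5.78, 5.65 and 5.86 (limma adjusted p = 4.16e-08). Rps2 had 5.67, 5.42, 5.29 and 5.56 (difference 0.38, limma adjusted p = 6.41e-10). In both, replicate 1 was highest and replicate 3 lowest. A probe of Rpl35 had 3.37, 3.01, 2.99 and 3.07 (difference 0.38, limma adjusted p = 3.15e-06). The other probe of Rpl35, printed once, had 4.72, 4.96, 4.88 and 5.31 and was lowest in replicate 1, so the probes of this gene disagreed on the order of the arrays. A probe of Rpl23a had 2.68, 2.65, 2.65 and 3.02 (difference 0.37, limma adjusted p = 8.30e-12), with replicate 4 apart from the rest. Probes of Rps13, Rps14, Rpl13 and Rpl10a differed by 0.35, 0.35, 0.33 and 0.30. Of the 43 probes, 19 were highest on replicate 1 and 19 on replicate 4, and 29 were lowest on replicate 3. The probe of Rpl5 printed 10 times was lowest on replicate 1 (2.27, against 2.44, 2.48 and 2.47; limma adjusted p = 0.000484).

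Several members had probes that disagreed on the level. In the 52 genes with at least 2 detected probes the median span of probe levels was 1.33 (log2), against 1.94 for all 1712 such genes, and 13 of the 52 (25.0%) spanned more than 2, against 48.9%. Rpl15 had the widest span: 1 probe had a mean level of -2.70 and the other 5.30, and the gene value of 1.30 is their mean. Rpl27a had probes at -0.41, 5.68 and 6.33, and Rpl7 had 5 probes between 4.70 and 5.04 and 1 at -1.13. In these 3 genes a single dim probe sets the low gene value.

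The other 10 genes included Rpl35a (span 3.69), Rpl21 (3.52), Rps10 (3.39), Rpl29 (3.27), Rpl22 (3.24), Rps27a (2.55), Rpl32 (2.47), Rps18 (2.15) and Rpl5 (2.11). A probe of Rpl28 was detected on 2 arrays and a probe of Rpl36a on none, while their other probes were detected on all 4. Taking the brightest probe of each gene raised the count of spans over 1.5-fold to 21. The share of all genes was not counted for that choice. All 74 members have pseudogene symbols in the rat gene table, 850 in all and up to 36 for Rps2, and 58 have genes marked as like them. Probe sequences were not used here, so whether a probe also reads such copies was not tested.

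Neighbouring gene groups were read beside the members. The 4 other protein genes of the cytosolic ribosome were all detected, with a median SD of 0.0884 and none over 1.5-fold. Rpsa, the laminin receptor protein of the small subunit, had 4.49, 4.30, 4.28 and 4.43. Fau, a ubiquitin-like fusion to a small subunit protein, had 5.56, 5.33, 5.26 and 5.48. Both were highest in replicate 1 and lowest in replicate 3. The median deviations of the 4 genes were 0.08, -0.05, -0.09 and 0.06 for replicates 1 to 4, with the signs of the members. Rack1, a scaffold on the small subunit that binds signalling kinases, had 4.16, 4.20, 4.20 and 4.15, with replicate 4 at the bottom.

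Of 14 mRNAs of elongation factors and other TOP mRNAs, all were detected, with a median SD of 0.0582 and none over 1.5-fold. Their median deviations were 0.01, -0.01, -0.01 and 0.04 for replicates 1 to 4. Eef1a1, which brings aminoacyl-tRNA to the ribosome, had 5.04, 4.96, 4.88 and 5.22. Eef2, the translocase, had 4.77, 4.74, 4.77 and 4.61. Tpt1 had 5.19, 5.08, 5.05 and 5.18, and Pabpc1, the poly(A)-binding protein, had 4.44, 4.43, 4.43 and 4.47. No array was highest in all 4 of these genes.

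The 68 mitochondrial ribosomal protein genes, which serve the separate ribosome of mitochondria, were all detected and had a median SD of 0.0629, with 2 over 1.5-fold. Their median deviations were -0.01, 0.01, 0.00 and 0.00. Their median level of 0.74 was below that of the cytosolic set, in the range where other genes showed no shift either. The 23 ribosome biogenesis genes had a median SD of 0.0727, with none over 1.5-fold. Npm1, a nucleolar chaperone, had 1.43, 1.59, 1.58 and 1.65, and Ncl (nucleolin) had 0.83, 0.94, 0.99 and 0.90, both lowest in replicate 1.

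Among 16 genes of mTOR signalling and regulators of ribosomal protein mRNA, 1 spanned over 1.5-fold. This was Mtor, a dim gene with -4.35, -3.73, -4.25 and -4.18. Myc, a transcription factor of ribosome genes, had 0.39, 0.30, 0.33 and 0.61. Of the paralogues, Rpl22l1 had -0.98, -1.08, -1.28 and -1.10, Rps27l, a p53 target, had 3.71, 3.63, 3.61 and 3.65, and Rpl3l, a muscle form of Rpl3, had -5.04, -4.78, -4.81 and -4.79. Larp1, which binds the TOP motif, and Rpl10l and Rpl39l had no matched probe here. The pseudogene symbols with a probe, Rps4x-ps1 and Rps7-ps20, were detected on no array. Of 15 genes marked by their symbol as like a member, a list made after the data were seen, 12 were detected on all arrays, with a median SD of 0.110 and 2 over 1.5-fold. Their median deviations were 0.07, 0.00, -0.09 and 0.01.

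As a list, the 8 macrophage markers had median deviations with the signs of the members: 0.07, -0.06, -0.06 and 0.08. Single markers differed: of the 8, 4 were highest in replicate 1 and 2 were lowest in replicate 3. Pparg (3.16, 3.42, 3.30 and 3.40) and Itgam (-2.72, -2.41, -2.46 and -2.51) were lowest in replicate 1. Of the markers, 1 spanned over 1.5-fold. This was Ctsd, a lysosomal protease, with 6.29, 5.86, 5.70 and 6.05, in the same order of arrays as most members. The part of these genes in the result was not tested.

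The TOP motif was set beside the spread. The 23 members with it at the annotated start had a median SD of 0.136 and a median deviation of 0.15 on replicate 1, and the 36 with a window and without it had 0.180 and 0.20. Their median levels were 4.89 and 5.18. Among the genes whose starts are printed above, Rplp0 with the motif and Rps12 without it both spanned over 1.5-fold.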

How the data were processed

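Total RNA of 4 exposed cultures was read on 1-colour arrays, 1 per culture and all on 1 slide. Version 11.0.1.1 of Agilent Feature Extraction made the deposited files, per the submitters' processing notes and the file headers. The deposited processed signal is an intensity, background-subtracted and detrended within arrays, per the file headers. The deposited median spot and background intensities were used for one alternative, since the mean spot signal was not used here. Other deposited columns were flags of detection, saturation and outlier spots.

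Of 58717 non-control spots (45598 probes), 427 to 714 per array were dropped as outliers. Spots of a probe were averaged as log2 processed signals. From these the array's 75th percentile was subtracted, taken over 17807 probes that every array detected. A probe was detected where most usable spots were well above background. A gene's level is the mean of its detected probes. RefSeq accessions without version were matched to the rat gene table of assembly GRCr8, so 21109 probes (46.3%) had a gene. Precision is limited by the number of arrays.

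Spread is the SD over 4 arrays. The moderated F test of limma 3.58.1 (R 4.3.3), with array as a factor and Benjamini-Hochberg adjustment at 0.05, was used on probes printed at least 2 times, after it was tested on simulated data. The files were read with version 1.17.8 of data.table, and matplotlib 3.10.9 with pandas 2.3.3 (Python 3.11.15) drew the figures. Genes named were the stalk genes, fixed examples of known roles, members whose probes disagree, the 8 largest and 4 smallest SDs, the 8 largest differences past the test, and a fixed set from the other lists. The members, lists and rules were chosen with earlier results of these data known. The genes Rpl17, Rps20, Rps24 and Ctsd, the members named for being highest in replicate 4 and the -like genes found by symbol were added after their values were seen. A few genes that the rule names are not reported here. Alternatives covered background correction, scaling, detection, probe choice, outliers, the test and each replicate. Separate analyses of probes printed once and 10 times were added after seeing the data.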

Additional observations from a re-analysis of the deposited data

Results flagged for a closer look

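In a group of 4 arrays, a gene was singled out when its highest or lowest array stood far from the others relative to the whole range (Dixon's criterion). Chance does so in about 1 of 20 genes. Of the 74 ribosomal protein genes 1 was singled out, where chance gives 3.7, and of 68 other genes of the neighbouring lists 5 were, where chance gives 3.4. The member was Rpl27, whose level of 2.90 in replicate 4 stood above 2.76 in each of the other cultures.

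The other genes were Rpl3l, at -5.04 in replicate 1 against -4.81 to -4.78; Eef2, at 4.61 in replicate 4 against 4.74 to 4.77; and Eif3h, at 0.43 in replicate 4 against 0.38 to 0.39. Gnl3, a nucleolar GTPase, was at -1.57 in replicate 1 against -1.34 to -1.31. Eif4ebp1, the translation repressor released by mTOR, was at 2.90 in replicate 1 against 2.82 to 2.83. None of the members was singled out for a high replicate 1.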

How the results depend on the processing

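All 74 members were detected on all arrays in every alternative that used all their probes. With quantile normalization the median SD was 0.0668, 2 members spanned over 1.5-fold, and the median deviation on replicate 2 changed sign to 0.00218. The count of spans over 1.5-fold was 21 with the brightest probe per gene, 19 with probes printed once and 0 with probes printed 10 times, which left 42 members. Shares of all genes were not counted for these choices of probe. Leaving out 1 replicate gave 1 to 12 spans, with 1 lacking replicate 1 and 4 lacking replicate 3. Of all detected genes, 4.34% to 5.92% spanned over 1.5-fold in these settings. The median SD of members was 0.127 to 0.189. Differing probes of members numbered 26 to 44, with 26 lacking replicate 4, where 30.0% of all probes tested differed. Normexp correction from median signals gave 9 differing probes of members. The cause of these changes was not tested. The signs of the median deviations on replicates 1, 3 and 4 held under the alternatives that kept all arrays. Levels of the 89 named genes moved together by a median of 1.07 when all spots set the 75th percentile and of 2.43 when detected probes were centred on their median. No paired analysis was possible because there is 1 group. Signal over background limited dim probes, and members lay far above it.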
